A study of Mus musculus with 16 samples.

Results

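Neutrophils are made in bone marrow in a fixed sequence, and each stage packs its own granules. Promyelocytes fill primary granules with myeloperoxidase and serine proteases, myelocytes and metamyelocytes fill secondary granules with iron-binding and antimicrobial proteins, and late cells add tertiary granules, cytosolic calprotectin, the NADPH oxidase and the receptors through which the mature cell is recruited. Transcription factors of the C/EBP family act at successive steps of this sequence, and noradrenaline released by sympathetic nerves in marrow is known to act on blood cell production through beta adrenergic receptors.

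The genes described here are 39 named genes of this sequence, chosen by gene name among the non-control probes of the arrays: 6 primary granule and promyelocyte genes, 4 transcription factors, 14 secondary and tertiary granule genes, 7 cytosolic and mature neutrophil genes, 3 oxidase subunits and 5 receptors. Of the 39 names, 36 were found on the array, among 23060 gene names tested in all, and 36 of 36 passed the filter on dim probes, being well above background on every array. The names Chi3l3 and Chi3l1 were not found as such. The array carries these genes under the newer symbols Chil3 and Chil1, whose values are given beside the list and are not counted in it, and no probe carries the name Ceacam1.

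Gene expression was measured in bone marrow of 16 mice, 1 array per mouse. KO chimeras (8 mice) were C57BL/6J recipients, lethally irradiated with 950 rad, that were given whole marrow of donors from a beta adrenergic receptor knockout strain, with Adrb1 among the targeted genes, by 1 retro-orbital injection. The labels give a ratio of 1:4 of the donor strain to C57BL/6J, and do not say what was mixed. Controls (8 mice) were C57BL/6J with the same 950 rad irradiation, for which the labels name no donor marrow. Recovery of 2 to 3 months before tissue collection is stated for the reconstituted mice. The labels give no ages. Receptor loss in blood cells, the donors' strain background and the graft itself cannot be told apart in this design.

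Values are levels on a log2 scale, the processed signal of a probe relative to the 75th percentile of its array, and differences are KO chimera minus control. A gene was called changed at a Benjamini-Hochberg adjusted p under 0.05 in limma's moderated test over all 23060 gene names. The 75th percentile of the signal was 127 to 545 across KO chimeras, against 231 to 558 across controls. No spot was saturated. Intervals of 95% use limma's moderated SE with the residual degrees of freedom alone, which makes them slightly wider than limma's own test implies. Precision is limited by the number of mice and, for some of the brightest genes, depended on the normalization. The used Adrb1 probe differed by -0.00041 ± 0.11 (SE, adjusted p = 0.999). A dimmer Adrb1 probe, above background on 7 KO chimera and 6 control arrays, was higher in KO chimeras by 0.95 ± 0.30 (per probe, adjusted p = 0.0277). No source used here places these probes relative to the targeted allele, and the genotype is therefore taken from the labels, on which all directions below rest.

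Neutrophil genes differed between the groups about as much as other genes, with a median absolute difference of 0.189, against 0.194 for all genes tested. A few of them moved by a lot. Of the 36 genes, 8 changed (22.2%), against 22.3% of all genes tested. Higher in KO chimeras were 6 of 36, namely Ctsg, Cebpd, Olfm4, Anxa1, Ncf4 and Trem1, where 10.2% of all genes were higher. Lower were 2 of 36, Cebpe and Itgb2l, where 12.1% of all genes were lower. The median difference of the 36 was 0.11, against -0.02 for all genes. Differences above 0 were found for 27 of 36, against 10876 of 23060 for all genes. Differences within 0.5 of 0 were found for 32 of 36, and the share over all genes was not computed. The groups did not overlap for 4 of 36 (11.1%), against 6.14% of all genes: Itgb2l, Olfm4, Ncf4 and Trem1. In bulk marrow, fewer cells of a type and less RNA per cell cannot be told apart.

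**Figure D1:**
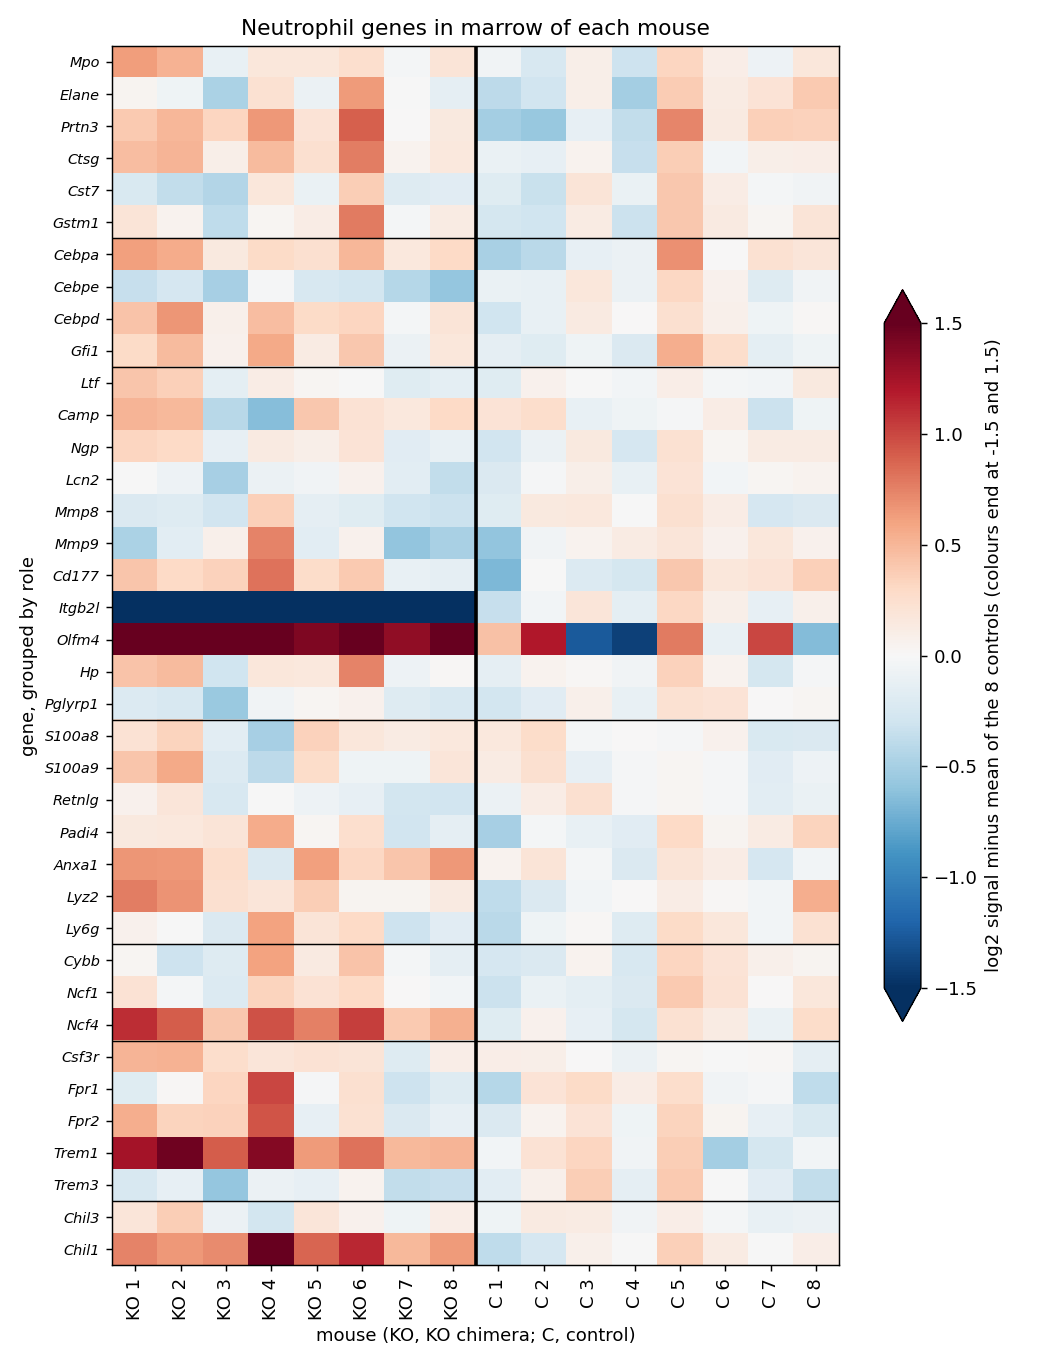
Level of each neutrophil gene in each mouse, as the log2 signal minus the mean of the 8 controls; rows are genes grouped by role, with Chil3 and Chil1 below, columns are the 8 KO chimeras and the 8 controls, and colours end at -1.5 and 1.5. Itgb2l is lower and Olfm4, Ncf4, Trem1 and Chil1 are higher in 8 of 8 KO chimeras, while most other rows stay close to the control mean.

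Sequences are shown first for the probes on which a result turns. Camp, which encodes the antimicrobial peptide cathelicidin, is read by a pair of 60-base probes that overlap by 50 bases and differ from each other at 2 of them. Counted from the 5′ end of the brighter probe, the differences are A16G and T20C, with the brighter probe's base first. The shared stretch holding both is printed as on the array, 5′ to 3′, with the differing bases in capitals.
Camp, brighter probe, bases 11 to 40: cagccAgagTagtaggcctgccttggcctg
Camp, dimmer probe, bases 1 to 30: cagccGgagCagtaggcctgccttggcctg
The brighter probe lies at chr9:109749911-109749970 on the minus strand of mouse build mm9. The files place the dimmer one at chr9:109749901-109749950, on the same strand. This pair is shown because it gave different calls for 1 gene, as described with the secondary granule genes.

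The probes for Trem1 and Csf3r are shown because a stretch of each recurs elsewhere on the array. Capitals mark the 18 bases searched for in all other probes.
Trem1, last 30 bases: TGTTGTTGTTGTTGTTGTtgttgtatttgg
Csf3r, last 30 bases: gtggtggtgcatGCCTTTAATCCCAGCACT
The Trem1 probe, at chr17:48385849-48385908 (mm9, plus strand), holds a simple TGT repeat. The repeat is longer than the stretch printed, as the same 18 bases are first met at base 16 of the probe. The same 18 bases stand in 4 other probes, all 4 of them above background, of which 0 were called (limma, per probe) and whose differences ran from -0.01 to 0.34. The Csf3r probe, at chr4:125721478-125721537 (mm9, plus strand), shares its last 18 bases with 2 other probes, of which 0 were called and whose differences were 0.11 and 0.21. None of the 6 probes passed an unadjusted p of 0.05 either (0 of 4 and 0 of 2). Those sharing the Trem1 repeat had smaller differences than Trem1 itself, at 0.93. The difference of Csf3r, 0.22, was close to the larger of the 2 from probes sharing its end. These probes were picked by 18 shared bases alone, so they cannot show what else the Trem1 and Csf3r probes read.

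By the used probes the primary granule genes were close between groups, and 1 of 6 passed the test, with a median difference of 0.16. Ctsg encodes cathepsin G, a serine protease of primary granules. Its level was 7.51, 7.80 and 8.21 in KO chimeras (lowest, median and highest mouse), against 7.10, 7.46 and 7.82 in controls. The groups overlapped, and 4 of 8 KO chimeras lay above every control. The difference was 0.34 ± 0.12 (SE, n = 8 mice per group, limma adjusted p = 0.0411), a 1.27-fold higher signal. This call was near the threshold: leaving out any 1 of 10 mice ended it (adjusted p up to 0.0810), as did testing without a filter on dim probes (adjusted p = 0.0723) or with array brightness as a covariate (adjusted p = 0.0812). Within the 5 slides that hold both groups, Ctsg was higher in KO chimeras on 5 of 5, by 0.12 to 0.63. A slide holds only 1 or 2 mice of a group, so here and below its difference can rest on 1 mouse. The share of all genes with the same direction on 5 of 5 slides was not computed.

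Its granule partners did not pass. Prtn3, encoding proteinase 3, had 4.93, 5.28 and 5.82 in KO chimeras, against 4.36, 4.93 and 5.65 in controls. The difference of 0.39 ± 0.18 had an adjusted p of 0.144, and the widest control spread among the primary granule genes (SD 0.47) went with it. Without control 5, the highest control for this gene, Prtn3 was called. Leaving out the highest control raises the difference in itself, and no other mouse left out gave a call (limma adjusted p up to 0.259). Elane, encoding neutrophil elastase, lies 7.03 kb from Prtn3 on chromosome 10 by the probes' positions and differed by 0.01 ± 0.16 (95% interval -0.33 to 0.36). Cst7, encoding the cysteine protease inhibitor cystatin F, differed by -0.12 ± 0.12, and Gstm1, a glutathione S-transferase, by 0.11 ± 0.14. The files place the used Gstm1 probe on chromosome 5 and its dimmer one, which differed by 0.10 ± 0.13, on chromosome 3, so the used probe may read a near copy and its value is uncertain.

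Mpo, encoding the myeloperoxidase that makes hypochlorous acid, gave different results from its pair of probes. The brighter probe, at chr11:87617840-87617899 (mm9, plus strand), had 8.53, 8.82 and 9.27 in KO chimeras, against 8.33, 8.66 and 8.97 in controls. That is a difference of 0.22 ± 0.12 (adjusted p = 0.197), and the gene counts as not called. The dimmer probe, at chr11:87615121-87615180, had 6.73, 7.28 and 7.75 in KO chimeras, against 5.68, 6.12 and 6.58 in controls, without overlap of the groups. Tested per probe over all 32689 probes, of which 23.5% were called, it was higher by 1.08 ± 0.17 (limma adjusted p = 2.10e-04). The files list this dimmer probe under a predicted transcript model and the brighter one under a curated transcript.
The end of each Mpo probe is printed below as on the array, to show the different stretches of the gene that they read. Capitals mark AATAAA, the common polyadenylation signal, which 5602 of 55681 probes on the array and 7 of 42 probes of the neutrophil genes (16.7%) hold.
Mpo, brighter probe, last 30 bases: tatttgtacctgaggttcacactAATAAAa
Mpo, dimmer probe, last 30 bases: gtggtggatgagatccgggagcgactgttt
The brighter probe holds the signal and the dimmer one does not, and the size of the Mpo difference depended on the probe. With the mean of a gene's kept probes in place of the brightest, Mpo was called, at 0.65 ± 0.13 (limma adjusted p = 0.00129).

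Among the transcription factors, 1 of 4 was higher and 1 of 4 was lower, with a median difference of 0.28. Cebpe drives the late steps of granulopoiesis and is required for secondary granule genes. Its level was 6.13, 6.40 and 6.69 in KO chimeras, against 6.52, 6.64 and 7.01 in controls. The ranges overlapped. The difference was -0.33 ± 0.09 (adjusted p = 0.0159), 0.796 of the control signal. Cebpe stayed past the threshold without any 1 of the mice (adjusted p up to 0.0331) and was lower on 5 of 5 slides, by -0.47 to -0.17. With the mice of each scan day alone, 4 against 4, it missed the threshold (adjusted p = 0.296 and 0.0703) at differences of -0.31 and -0.35.

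Cebpd, a family member that is induced in stress, moved the other way. Its level was 5.90, 6.23 and 6.59 in KO chimeras, against 5.63, 5.94 and 6.17 in controls, with overlap. The difference was 0.30 ± 0.10 (adjusted p = 0.0421). Like Ctsg it was near the threshold: leaving out any 1 of 11 mice ended the call (adjusted p up to 0.0859), and so did slide as a block (adjusted p = 0.0667) and array brightness as a covariate (0.0996). Cebpa, required for entry into the granulocyte lineage, had 1.11, 1.26 and 1.57 in KO chimeras, against 0.47, 0.92 and 1.65 in controls. It differed by 0.35 ± 0.14 (adjusted p = 0.0893), with control 5 above all KO chimeras. Gfi1, a repressor needed for neutrophil differentiation, differed by 0.25 ± 0.12 (adjusted p = 0.164). Without control 5, the highest control for both, Cebpa and Gfi1 were called. Neither was called with any other mouse left out.

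Secondary and tertiary granule genes held both of the largest differences. Of the 11 measured, 1 was higher, 1 was lower and the median difference was 0.05. Itgb2l encodes an integrin beta subunit-like protein whose message marks maturing neutrophils in mouse. Its level was 4.08, 3.99, 3.37, 3.87, 3.35, 3.68, 3.98 and 3.24 in KO chimeras 1 to 8, against 5.39, 5.69, 5.92, 5.59, 6.05, 5.83, 5.61 and 5.82 in controls 1 to 8. Every KO chimera lay below every control. The difference was -2.05 ± 0.14 (adjusted p = 9.27e-09), so that KO chimeras had 0.242 of the control signal. It was lower on 5 of 5 slides, by -2.46 to -1.63, and ran from -2.10 to -1.98 as each mouse was left out.

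The used Itgb2l probe lies at chr16:96643947-96644006 and a dimmer one at chr16:96644268-96644327 (mm9, both on the minus strand).
Itgb2l, used probe, last 30 bases: cttagaagttcagacacatgtttttctgtg
Itgb2l, dimmer probe, last 30 bases: agagcctcatttccaagaaccccaccatgt
These sequences share no overlap by position and both were called. The dimmer probe had 0.356, 1.050 and 1.502 in KO chimeras, against 1.729, 2.222 and 2.633 in controls, and was lower by -1.22 ± 0.16 (per probe, adjusted p = 2.90e-05). Both probes put all KO chimeras below all controls, and they gave differences of different size.

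Olfm4 encodes olfactomedin 4, a glycoprotein stored in the secondary granules of a subset of neutrophils. Its level was 1.81, 1.90, 1.03, 2.18, 0.92, 1.51, 0.85 and 1.11 in KO chimeras 1 to 8, against -0.04, 0.71, -1.75, -1.88, 0.29, -0.60, 0.52 and -1.13 in controls 1 to 8. All KO chimeras lay above all controls, and the controls spread over more than the difference itself (SD 0.51 in KO chimeras and 1.01 in controls). The difference was 1.90 ± 0.37 (adjusted p = 0.00125), a 3.72-fold higher signal. It ran from 0.39 to 3.48 within slides and from 1.70 to 2.07 as each mouse was left out. With normexp background correction it was 1.58. Within scan day 1 it was 2.36 (adjusted p = 0.0400) and within scan day 2 it was 1.43 (adjusted p = 0.0508).

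**Figure D2:**
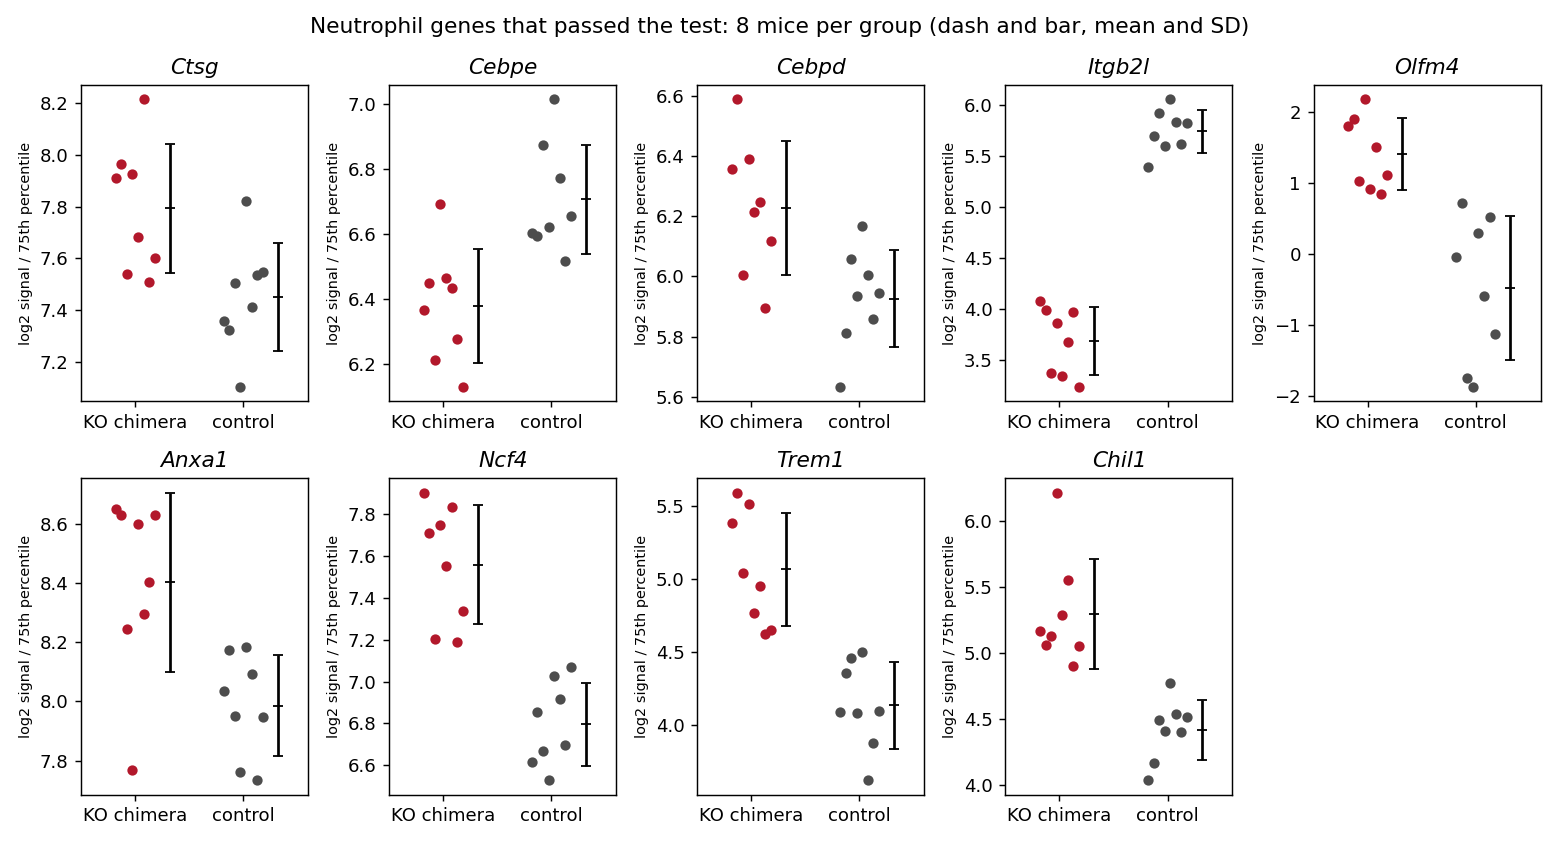
Level of each called neutrophil gene and of Chil1 in each mouse (points), with the mean and SD of 8 KO chimeras and 8 controls (dash and bar); the vertical axis is log2 signal over the array's 75th percentile, does not start at 0 and differs between panels. The groups do not overlap for Itgb2l, Olfm4, Ncf4, Trem1 and Chil1, and overlap for Ctsg, Cebpe, Cebpd and Anxa1.

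The abundant cargo proteins of secondary granules did not pass the test. Ltf, encoding the iron-binding lactoferrin, had 8.678, 8.878 and 9.277 in KO chimeras, against 8.676, 8.845 and 9.005 in controls. Its difference was 0.05 ± 0.09, with a 95% interval from -0.15 to 0.26. Ngp, encoding neutrophilic granule protein, differed by 0.08 ± 0.10 (interval -0.13 to 0.30). Lcn2, encoding the siderophore-binding lipocalin 2, differed by -0.15 ± 0.09 (interval -0.34 to 0.04) and was lower on 5 of 5 slides. All 3 intervals include 0 and end within 0.5 of it on the log2 scale.

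Camp had 8.59, 9.49 and 9.75 in KO chimeras by its brighter probe, against 8.91, 9.19 and 9.49 in controls. KO chimeras 3 and 4 were the lowest of all mice and the others mostly high, and the difference was 0.13 ± 0.16 (adjusted p = 0.621). By the dimmer probe printed above it had 8.56, 9.40 and 9.58 in KO chimeras, against 8.53, 8.74 and 8.98 in controls, a difference of 0.47 ± 0.15 that was called (per probe, adjusted p = 0.0262). The same KO chimeras were lowest of their group by this probe. The call on Camp therefore depended on which of the overlapping probes was read.

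The matrix metalloproteases did not pass either. Mmp8, neutrophil collagenase, differed by -0.16 ± 0.11 (adjusted p = 0.312), and Mmp9, the gelatinase of tertiary granules, by -0.13 ± 0.17 (adjusted p = 0.653). Cd177, in human a surface and granule protein of a subset of neutrophils, differed by 0.29 ± 0.16 (adjusted p = 0.220). For Hp, encoding haptoglobin, the difference was 0.20 ± 0.13, and for Pglyrp1, which binds bacterial peptidoglycan, it was -0.18 ± 0.10, lower on 5 of 5 slides. KO chimera 4 was highest of its group for Mmp8, Mmp9 and Cd177 alike.

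Chil3 and Chil1 are chitinase-like proteins secreted by myeloid cells. Chil1 had 4.91, 5.15 and 6.22 in KO chimeras, against 4.04, 4.45 and 4.77 in controls, without overlap. It was higher by 0.88 ± 0.16 (adjusted p = 7.47e-04) and on 5 of 5 slides, by 0.62 to 1.26. Chil3 had 8.41, 8.77 and 9.05 in KO chimeras, against 8.58, 8.65 and 8.82 in controls, and differed by 0.06 ± 0.09 (adjusted p = 0.692). The chitinase-like pair thus differed in whether it passed the test, and the difference between its members was not tested.

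**Figure D3:**
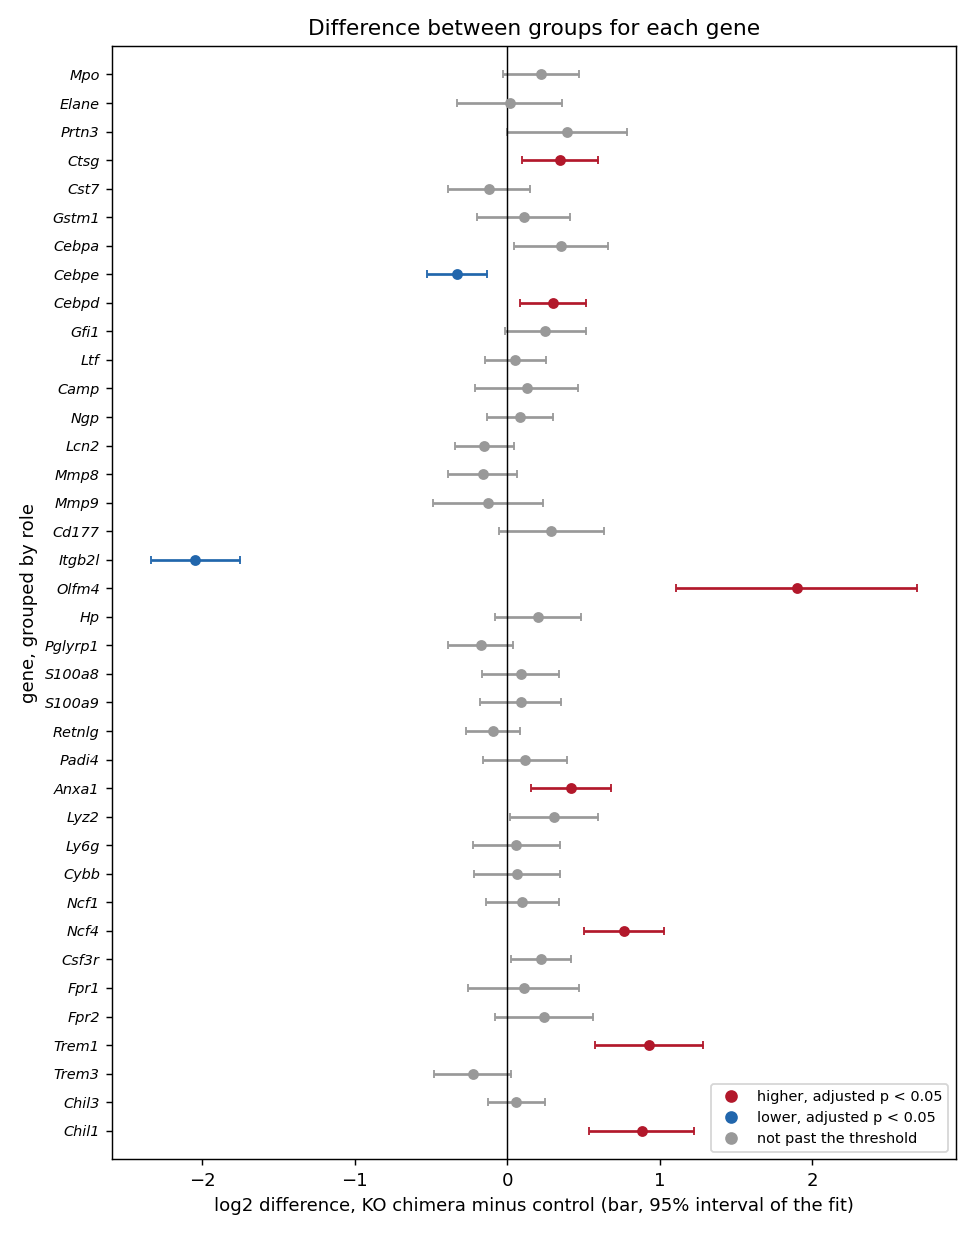
Difference of each neutrophil gene between 8 KO chimeras and 8 controls on the log2 scale (points) with the 95% interval of the fit (bars); genes run down the page by role, with Chil3 and Chil1 last, and colour marks an adjusted p under 0.05. Itgb2l at -2.05 and Olfm4 at 1.90 stand far from the other genes, 32 of the 36 lying within 0.5 of 0.

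Cytosolic and mature neutrophil genes had a median difference of 0.09, and 1 of 7 was called. Anxa1 encodes annexin A1, a phospholipid-binding protein that acts on formyl peptide receptors. Its level was 7.77, 8.50 and 8.65 in KO chimeras, against 7.73, 7.99 and 8.18 in controls. KO chimera 4 lay among the controls and the other KO chimeras lay above every control. The difference was 0.42 ± 0.12 (adjusted p = 0.0207). Without KO chimera 4 it was 0.51 (adjusted p = 0.00106). Leaving out other mice gave a limma adjusted p up to 0.0426. Within scan day 1 it was 0.33 and missed the threshold (adjusted p = 0.375). Within scan day 2 it was 0.51 (adjusted p = 0.0144).

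Anxa1 has a second probe, and both lie on chromosome 19, minus strand, at chr19:20447938-20447997 for the brighter and chr19:20449722-20449781 for the dimmer (mm9). By the dimmer probe KO chimeras had 7.08, 7.41 and 7.68, against 6.29, 6.60 and 7.02 in controls, so that the groups did not overlap. It was higher by 0.80 ± 0.12 (per probe, adjusted p = 7.90e-05). KO chimera 4, the lowest of its group by the brighter probe, was the highest by the dimmer one. Both probes called the gene in the same direction.

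S100a8 and S100a9 encode the subunits of calprotectin, which sequesters metal ions and makes up much of neutrophil cytosol. S100a8 had 8.42, 9.08 and 9.26 in KO chimeras, against 8.69, 8.91 and 9.20 in controls, a difference of 0.09 ± 0.12 (interval -0.17 to 0.34). S100a9, 22.8 kb away on chromosome 3 by the probes' positions, differed by 0.09 ± 0.12 (interval -0.18 to 0.35). Neither passed, and KO chimera 4 was lowest of all mice for both. With quantile normalization the SE was 0.08 for S100a8 and 0.07 for S100a9. Retnlg, a resistin-like secreted protein, differed by -0.09 ± 0.08 (adjusted p = 0.474), and Ly6g, the surface antigen used to mark mouse neutrophils, by 0.06 ± 0.13 (adjusted p = 0.799). For Padi4, which citrullinates histones in neutrophil extracellular traps, both probes were near 0, at 0.12 ± 0.13 and 0.01 ± 0.14. Lyz2, lysozyme of myeloid cells, differed by 0.31 ± 0.13 (adjusted p = 0.116) and was positive on 5 of 5 slides. It was called with normexp correction and with the authors' processed values. Leaving out control 8, its highest control, gave a call, and leaving out any other mouse did not.

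The oxidase kills microbes by making superoxide in the phagosome, and 1 of its 3 subunits here was called. Ncf4 encodes the cytosolic subunit that binds a phosphoinositide of the phagosome membrane. Its level was 7.19, 7.63 and 7.90 in KO chimeras, against 6.53, 6.78 and 7.07 in controls, without overlap. The difference was 0.76 ± 0.12 (adjusted p = 2.20e-04), 1.70-fold. It ran from 0.43 to 0.95 within slides and from 0.71 to 0.82 as each mouse was left out, and within scan days it was 0.89 (adjusted p = 0.0177) and 0.63 (adjusted p = 0.0515).

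Cybb, the membrane catalytic subunit, had 3.08, 3.39 and 3.99 in KO chimeras, against 3.15, 3.44 and 3.71 in controls, and differed by 0.06 ± 0.13 (adjusted p = 0.780). Ncf1, the cytosolic organiser subunit, had 4.06, 4.37 and 4.59 in KO chimeras, against 3.94, 4.21 and 4.65 in controls, and differed by 0.10 ± 0.11 (adjusted p = 0.584). Both ranges overlapped widely. The 95% interval of Ncf4, 0.50 to 1.02, lay above those of Cybb, -0.22 to 0.35, and of Ncf1, -0.14 to 0.34, and the contrast between genes was not tested. The 5 other oxidase genes listed for comparison had 0 higher and 0 lower in limma, and 0 at an unadjusted p under 0.05. Among them the proton channel gene Hvcn1 differed by -0.21 ± 0.11 (adjusted p = 0.208).

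Of the receptors, 1 of 5 was called, with a median difference of 0.22. Trem1 amplifies inflammatory signalling in neutrophils and monocytes. Its level was 4.628, 4.997 and 5.595 in KO chimeras, against 3.623, 4.095 and 4.501 in controls, without overlap. The difference was 0.93 ± 0.17 (adjusted p = 5.67e-04), 1.91-fold, and it was positive on 5 of 5 slides, at 0.29 to 1.20. With array brightness as a covariate it was 0.77 (adjusted p = 3.40e-04), and it passed within each scan day, at 1.05 and 0.82. What part of the Trem1 signal comes from other transcripts holding the repeat printed above was not tested.

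Trem3, a related mouse receptor whose probe lies 12.1 kb from that of Trem1 on chromosome 17, had 3.65, 4.04 and 4.28 in KO chimeras, against 3.86, 4.16 and 4.62 in controls. Its difference was -0.23 ± 0.12 (adjusted p = 0.189). Csf3r encodes the receptor for G-CSF, the main cytokine of neutrophil production. It had 7.17, 7.57 and 7.88 in KO chimeras, against 7.24, 7.38 and 7.46 in controls, and differed by 0.22 ± 0.09 (adjusted p = 0.0960). KO chimera 7 was its lowest mouse, and without that mouse Csf3r was called. With any other mouse left out Csf3r was not called. The end of the Csf3r probe recurs in 2 other probes, which differed by 0.11 and 0.21. What part of the Csf3r signal comes from other transcripts was not tested. The formyl peptide receptors Fpr1 and Fpr2, which sense bacterial peptides and lie 16.9 kb apart on chromosome 17, differed by 0.11 ± 0.17 and 0.24 ± 0.15 and did not pass.

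**Figure D4:**
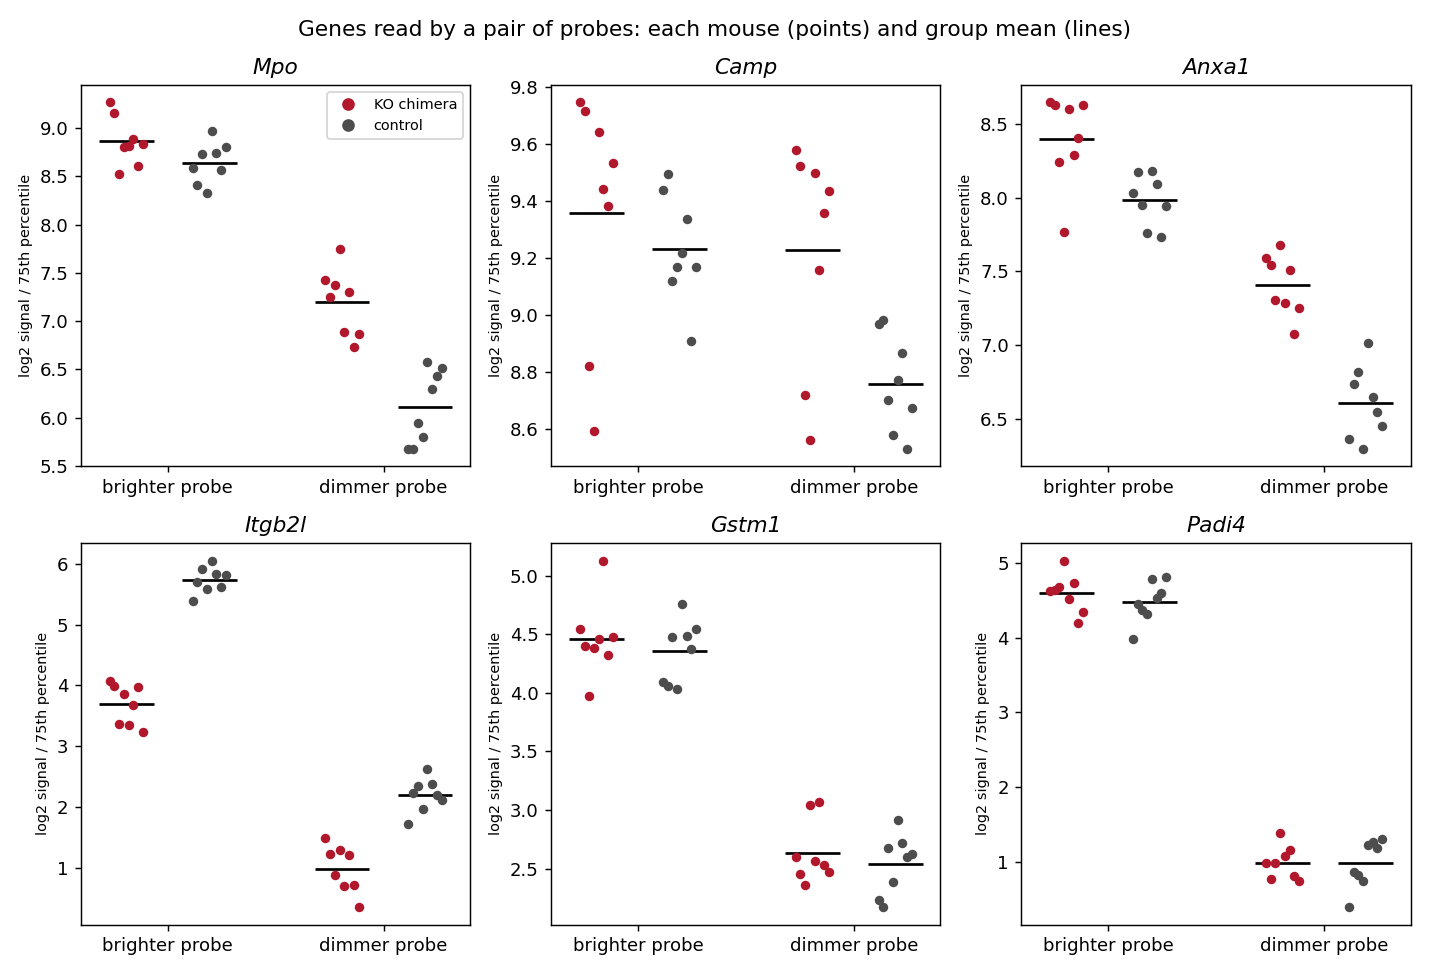
Levels by each probe for the 6 neutrophil genes that have a pair of probes (points, mice; lines, group means; KO chimeras left of controls within each probe); the vertical axis is log2 signal over the array's 75th percentile and differs between panels. Itgb2l and Anxa1 differ by both probes, Mpo and Camp by the dimmer probe, and Gstm1 and Padi4 by neither.

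Individual mice stood apart across many of these genes, and with 1 array per mouse a mouse and its array cannot be told apart. Control 5 was the highest control for 24 of 36 genes, above the control mean for 34 of 36 and by a median of 0.31. Control 1 was the lowest control for 15 genes. Among KO chimeras, mouse 4 was highest for 12 genes and mice 1 and 6 for 9 each, while mouse 7 was lowest for 15 and mouse 3 for 10. Mice 1 and 2 lay above the control mean by medians of 0.30 and 0.32, and mice 3, 7 and 8 lay below it by medians of -0.14, -0.08 and -0.08. The SD was larger in KO chimeras for 27 of 36 genes (75%), as for 70.9% of all genes.

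Without control 5, the number of neutrophil genes higher in KO chimeras was 9, against 6 with all mice, and it was 4 without any 1 of KO chimeras 1, 2, 4 and 6 or controls 1, 2, 4, 6 and 7. The number lower was 2 in each case. The genes lost were Ctsg and Cebpd, while Cebpe, Itgb2l, Olfm4, Anxa1, Ncf4 and Trem1 passed with each of the 16 mice left out in turn.

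Promoters were compared because C/EBP factors, of which Cebpe and Cebpd changed here, bind the sequence TTGCNNAA. It was searched on both strands in the window from 250 bases before to 50 after each gene's start in RefSeq (GRCm38.p6). There 33 of the 39 genes matched by symbol, with Chil3, Chil1 and Ceacam1 among them. Cebpe, Cebpd, Mmp9, Hp, Ncf4 and Trem3 had no window, so the called genes Cebpe, Cebpd and Ncf4 were not searched. The motif stood in a window of 10 of the 33 genes (30.3%), against 12.2% of 27025 genes. Shown are 4 examples: the 1 called gene with a match among those searched, Anxa1, and 3 secondary granule genes that did not pass the test. Each is printed in the direction of the gene, with the motif in capitals.
Anxa1, chr19:20390796-20390825, minus strand: tccgggagtagTTTTGCAAgacttgtttct
Ltf, chr9:111019206-111019235, plus strand: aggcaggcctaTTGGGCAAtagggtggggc
Lcn2, chr2:32387937-32387966, minus strand: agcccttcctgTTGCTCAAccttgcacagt
Ngp, chr9:110419659-110419688, plus strand: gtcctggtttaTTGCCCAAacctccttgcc
These motifs begin 143 bases before the start of Anxa1, 75 before Ltf, 216 before Lcn2 and 138 before Ngp. A match is a description of letters in the window, and of the other genes with one (Gfi1, Mmp8, S100a9, Ly6g, Retnlg and Cst7), none was called with all mice.

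Other genes of the pathway were read from lists beside the 39. Of 20 other granule and granule-sorting genes, 2 were higher and 2 lower, with a median difference of 0.07. Among all genes tested, 10.2% were higher and 12.1% lower. Slpi, an inhibitor of neutrophil elastase and cathepsin G, had 6.48, 6.72 and 7.11 in KO chimeras, against 7.30, 7.48 and 7.74 in controls, without overlap. It was lower by -0.77 ± 0.11 (adjusted p = 5.06e-05). Lyst, which governs granule size, was higher by 0.62 ± 0.15 (adjusted p = 0.00488), and Orm1, an acute-phase protein that human neutrophils store in granules, by 0.58 ± 0.16 (adjusted p = 0.0131). The other lower gene, G6pc3, was named after its value was seen.

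Of 17 other granulopoiesis regulators measured, 4 were higher and 1 lower (all genes, 10.2% and 12.1%), with a median of 0.20. Spi1, the transcription factor at the head of the myeloid lineage, had 0.71, 1.18 and 1.56 in KO chimeras, against -0.24, 0.30 and 0.58 in controls, without overlap. It was higher by 0.96 ± 0.15 (adjusted p = 1.31e-04). Socs3, which restrains signalling of the G-CSF receptor, was higher by 0.76 ± 0.18 (adjusted p = 0.00508), and Jak2, a kinase of cytokine receptors, was lower by -0.49 ± 0.09 (adjusted p = 8.29e-04). The remaining calls, Runx1 and Csf2ra, both higher, were named after their values were seen.

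Of 29 other mature neutrophil surface and mediator genes measured, 5 were higher and 5 lower (all genes, 10.2% and 12.1%), with a median of 0.02. C5ar1, the receptor for a chemotactic complement fragment, had -1.72, -1.51 and -0.85 in KO chimeras, against 0.43, 0.70 and 0.92 in controls. It was lower by -2.03 ± 0.15 (adjusted p = 2.55e-08). Il1r2, the decoy receptor for interleukin 1, had 0.322, 0.696 and 1.276 in KO chimeras, against 2.304, 2.512 and 2.766 in controls, and was lower by -1.78 ± 0.15 (adjusted p = 1.61e-07). Il1rn, the interleukin 1 receptor antagonist, was higher by 1.02 ± 0.13 (adjusted p = 2.38e-05). In each of the 3 the groups did not overlap. With normexp background correction and quantile normalization the differences were smaller, at -1.63 for C5ar1, -1.65 for Il1r2 and 0.63 for Il1rn. The other calls, named after their values were seen, were Tlr2, Il1b, Cxcr4 and G0s2, all higher, and Selplg, Itgam and Ptafr, all lower.

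Markers of other marrow cells were read beside these results, where 10.2% of all genes tested were higher and 12.1% lower. Of 6 monocyte markers measured, 2 were higher (Cd14 by 2.26 and Ccr2 by 0.67) and 0 lower, with a summed linear level of 89.7 to 162 in KO chimeras and 73.6 to 109 in controls. Trem1, Anxa1, Lyz2, Ncf4 and Cebpd are also made by monocytes, and the part of monocytes in their values was not tested. Eosinophil markers (4 measured) had 0 calls in limma, with 1 at an unadjusted p under 0.05, and a summed level of 12.2 to 181 in KO chimeras, against 72.5 to 145 in controls. Stem and progenitor markers had 4 of 6 lower, with a summed level of 10.1 to 14.4 in KO chimeras, against 12.9 to 20.9 in controls. Resident macrophage markers had 5 of 8 lower, with sums of 9.14 to 16.3 in KO chimeras, against 13.5 to 21.7 in controls. Of 9 erythroid markers 0 were called in limma (0 at an unadjusted p under 0.05), of 8 B lineage markers 1 was higher, and of 6 T lineage markers 1 was higher and 2 were lower. Not above the filter on dim probes, or not found by name, were 1 of 7 monocyte, 1 of 5 eosinophil, 1 of 7 T lineage and 3 of 11 resident macrophage markers. The part of any of these cell types in the neutrophil genes' values was not tested.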

How the data were processed

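Cy3-labelled total RNA of bone marrow was hybridised to Agilent arrays, 1 colour and 1 array per mouse, per the labels' protocols; groups come from the sample titles, and the labels describe each sample as a mouse. The intensity of each spot in the deposited scanner files is linear and already background-subtracted by the scanner software, Agilent Feature Extraction (version 10.7 in the submitters' processing notes, 10.1.1.1 per the file headers). The authors' deposited value table holds log2 values that correlated with the scanner signal of each array at 0.991 or more, with column medians of 4.98 to 5.0 and a lowest value of 2.3; no source used here gives its centring, and it served as an alternative.

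Each signal was set relative to the 75th percentile of the non-control spots of its array and taken to log2. Outlier spots were left out and spots of a probe averaged. The filter kept 32693 of 55681 probes, those well above background on 6 or more of the 8 arrays of either group, and the brightest of these stood for its gene name. The comparison used limma 3.58.1 in R 4.3.3 (two-sided, Benjamini-Hochberg over all genes, or over all probes for values per probe); the test was checked on simulated data. Positions of probes were taken from the files (mm9).

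Of 6 slides, 5 held both groups, and each of 2 scan days held 4 mice per group. Every one of the 39 genes is named, and of each other list up to 3 called genes with the smallest p, or 2 where none was called; a gene that this rule names is not reported here. The members and the lists were chosen with earlier results of these data known. Alternatives were other normalizations, the authors' values, other filters, the mean of a gene's probes, replicate number, slide and scan day as blocks, each scan day alone, array brightness as a covariate and leaving out each mouse.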

Additional observations from a re-analysis of the deposited data

Results flagged for a closer look

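A mouse stood far from the rest of its group, by the gap to its neighbour relative to the group's range, in 3 of 76 groups of 8 values; chance gives about 1 in 20. Mmp8 in KO chimeras was highest in mouse 4, at 5.855, the next mouse being at 5.364. Mmp9 in controls was lowest in mouse 1, at 3.715, the next being at 4.261. Anxa1 in KO chimeras was lowest in mouse 4, at 7.767, the next being at 8.244; its dimmer probe did not show this.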

How the results depend on the processing

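With the replicate block the numbers of the titles did not pair mice (same-numbered mice correlated at -0.19 to 0.20 in their deviations); 4726 genes changed, and of the neutrophil genes 4 were higher and 2 lower, Ctsg and Cebpd losing their calls (adjusted p = 0.105 and 0.0950). With mice of scan day 1 alone, 4 per group, 1612 genes changed, and 3 neutrophil genes were higher and 1 lower; with scan day 2 alone, 2314 genes changed, and 2 were higher and 1 lower, with fewer mice in each test. Leaving out each mouse gave 4392 to 5325 changed genes, and 4 to 9 neutrophil genes higher and 2 lower. No call of a neutrophil gene turned direction under these alternatives. Differences that changed sign were all of genes that did not pass: S100a9 at -0.0190 with normexp; Mmp9 at 0.050 and Chil3 at -3.47e-05 on scan day 1; Elane at -0.0102, Padi4 at -0.0225, Ly6g at -0.0367 and Fpr1 at -0.0143 on scan day 2; Ltf at -0.00135 and Fpr1 at -0.0114 with array brightness; and, as mice were left out, Elane (-0.0744 to 0.0850), Ly6g (-0.0184 to 0.113), Cybb (-0.0123 to 0.118) and Fpr1 (-0.0190 to 0.168). The cause was not tested. All 36 genes were above background on every array. With 8 mice per group, precision is limited by their number and, for some of the brightest genes, depended on the normalization.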
